A study of Mus musculus with 6 samples.

Results

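MHC class I presentation was followed through 10 listed genes of its processing and presenting core: the heavy chain genes H2-K1 and H2-D1, the light chain gene B2m, the immunoproteasome subunit genes Psmb8, Psmb9 and Psmb10, the peptide transporter genes Tap1 and Tap2, the loading factor gene Tapbp and the transcriptional activator gene Nlrc5. All 10 were among the 13384 genes of the table and were matched by symbol. Polyadenylated RNA was sequenced from the left ventricles of 3 adult mice with a global cytoglobin deletion, Cygb(-/-), and 3 wild-type littermates, Cygb(+/+). Cytoglobin is a globin of fibroblasts and vessel wall cells, and its deletion here was in all cells of the animal. Every mouse, wild type included, had received angiotensin II by osmotic pump at 1.5 mg/kg/day for 2 weeks, so the comparison asks how the genotypes differ in a heart under this pressor hormone. Each library came from 1 mouse. The sources used here do not name the strain, sex or exact age, and mice without angiotensin II were not analysed here.

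MHC class I molecules show peptides from inside the cell to CD8 T cells. Proteasomes cut proteins into peptides, the TAP transporter carries them into the endoplasmic reticulum, and tapasin holds an empty heavy chain and its light chain at the transporter until a peptide fits. Interferon induces 3 alternative catalytic subunits that replace the constitutive ones and make the immunoproteasome, and NLRC5 activates the class I promoters. In the healthy heart, class I is found mainly on endothelial and immune cells and little on cardiomyocytes.

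The members did not all differ in one direction. All 3 knockout libraries lay above all 3 wild-type libraries for Psmb8, Psmb9, Tap1, Nlrc5 and B2m, at fold changes of 1.30 to 1.73, whereas all 3 lay below for Psmb10, which was 1.39-fold lower. Of all genes, 11.8% had every knockout library above every wild-type library and 10.5% every one below. The heavy chain genes H2-K1 and H2-D1 differed by less than the spread between libraries. None of the 10 passed the edgeR quasi-likelihood test at an adjusted p of 0.05, where 0.112% of all genes passed, 0.0897% higher and 0.0224% lower in the knockout.

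Library totals ran from 23190864 to 25002634 counts in the knockout and from 24725110 to 30354857 in the wild type, and a member had between 97 and 6697 counts in a library. Myh6, the adult cardiac myosin gene, was at 27088 ± 6242 CPM (counts scaled to the library total and its TMM factor) in knockout ventricles and 28055 ± 5990 CPM in wild-type ventricles (SD, n = 3 each). The number of genes called was 15 with all libraries. It was 1 and 0 when knockout replicates 1 and 3 were left out, and 8 and 1826 when wild-type replicates 1 and 2 were left out, so single libraries set the number of calls. Cygb was not analysed here, and the genotypes are those of the labels.

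In GRCm38, 7 of the 10 members lie on chromosome 17, in or beside the mouse MHC. Tapbp (33915899 to 33929292) is followed by H2-K1 (33996017 to 34000347). Psmb9, Tap1, Psmb8 and Tap2 stand side by side within 34.3 kb (34181987 to 34216321), and H2-D1 lies at 35262730 to 35267499. B2m is on chromosome 2 (122147686 to 122153083). Nlrc5 (94434356 to 94527272) and Psmb10 (105935735 to 105938444) are on chromosome 8. All are protein-coding, and the counts are totals over each gene.

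The upstream sequences of 3 members are shown: the light chain gene, a heavy chain gene and Psmb10, whose level stood on the other side. A link between the motifs and the direction of a difference was not tested. They come from the 250 bases before the RefSeq start site (GRCm38.p6), less any base in an annotated untranslated region, 5′ to 3′, and capitals mark matches to the motifs searched.
B2m, chr2:122147437-122147685, plus strand: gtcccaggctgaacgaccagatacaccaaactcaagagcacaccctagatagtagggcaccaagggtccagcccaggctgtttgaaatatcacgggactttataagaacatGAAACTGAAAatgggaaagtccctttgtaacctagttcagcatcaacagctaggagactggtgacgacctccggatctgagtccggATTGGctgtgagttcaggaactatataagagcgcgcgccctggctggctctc
H2-K1, chr17:34000348-34000597, minus strand: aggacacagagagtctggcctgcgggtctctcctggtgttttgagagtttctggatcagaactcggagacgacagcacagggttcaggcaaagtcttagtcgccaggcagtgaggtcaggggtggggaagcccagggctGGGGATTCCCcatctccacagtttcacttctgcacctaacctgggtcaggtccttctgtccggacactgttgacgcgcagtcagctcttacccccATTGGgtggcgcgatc
Psmb10, chr8:105938445-105938642, minus strand: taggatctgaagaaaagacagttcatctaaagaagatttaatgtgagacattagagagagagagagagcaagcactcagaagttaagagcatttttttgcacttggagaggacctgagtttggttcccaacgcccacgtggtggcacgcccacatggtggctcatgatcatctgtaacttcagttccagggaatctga
The kappa B letters of both heavy chain genes, in capitals, are set side by side with 10 bases on each side. Here bases in an annotated untranslated region were kept, and the H2-D1 site lies in one. These exact letters were found in no other member with a matched window, and variant kappa B sites were not searched.
H2-K1 site, chr17:34000439-34000468, minus strand: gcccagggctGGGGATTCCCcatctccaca
H2-D1 site, chr17:35262913-35262942, plus strand: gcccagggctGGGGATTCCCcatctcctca

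RefSeq windows from 250 bases before to 50 bases after the start were matched for 8 of the 10 members, not for Tap2 or Nlrc5. The 4 motifs searched on both strands were the core of the interferon-stimulated response element (a pair of GAAA repeats with any 2 bases between them), TTCNNNGAA, the core of the gamma activated sequence, a kappa B site, which is the longer run of capitals in the H2-K1 and H2-D1 sequences, and CCAAT, the Y box. None of the 4 contains another. The kappa B letters were found in H2-K1 and H2-D1, 111 and 171 bases before their RefSeq start sites. In GENCODE, all 250 upstream bases of H2-D1, Psmb8 and Psmb9 lie in an annotated untranslated region. The same holds for 246 of Tap1 and 244 of Tapbp, and the motif search kept such bases. For H2-K1 the distance is counted from the start site farther upstream, and the window of its other RefSeq start holds the same kappa B site. Of all 32851 windows, those of the members included, 0.107% held the kappa B letters. The bases beside the site are nearly the same in both genes, so the matches are not independent, and enrichment among the members was not tested. The response element core was found in B2m (GAAACTGAAA) and in 3.44% of all windows, and the gamma activated core in Psmb8 (TTCCCAGAA) and in 8.30%. A Y box was found in 6 of the 8 members, counted by gene, and in 37.4% of all windows. Psmb10 held none of the 4. The windows of Tap1 and Psmb9 share 275 of 300 bases on opposite strands, and their Y box is the same site, counted for both genes. A match describes the letters and not a bound site. Variants that depart from these letters were not searched, so a window without a match may still hold such a site.

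The heavy chain genes H2-K1 and H2-D1 encode the classical class I molecules and were among the most abundant members. H2-K1 was at 208, 238 and 192 CPM in knockout replicates 1, 2 and 3, against 192, 166 and 213 CPM in wild-type replicates 1, 2 and 3. The groups overlapped, and wild-type replicate 2 was the lowest library (log2 fold change 0.16, SE 0.14, edgeR adjusted p = 0.530). H2-D1 was at 211, 215 and 189 CPM in the knockout, against 204, 159 and 219 CPM in the wild type. Here too wild-type replicate 2 was lowest, and a wild-type library was highest (0.076, SE 0.14, edgeR adjusted p = 0.793). The H2-K1 difference was 0.073 when knockout replicate 2 was left out and 0.25 when wild-type replicate 3 was. The H2-D1 difference was -0.042 when wild-type replicate 2 was left out. The heavy chain genes resemble one another, so reads may have been divided among them in the counting. Of the 50-base stretches of the main H2-D1 transcript, 14.3% also occur in transcripts of other genes and 5.31% in H2-K1; for H2-K1, 8.79% occur elsewhere. At 100 bases the shares were 4.64% for H2-D1 and 0% for H2-K1. The read length is not given in the sources used here, so these values are uncertain to that degree.

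B2m encodes beta-2 microglobulin, the light chain that every classical heavy chain needs. It was at 271, 266 and 211 CPM in the knockout, against 173, 198 and 207 CPM in the wild type. Knockout replicate 3 stood only just above wild-type replicate 3. The fold change was 1.30 (log2 0.38, SE 0.14) and did not pass (edgeR adjusted p = 0.169). The point estimate of B2m was above those of both heavy chain genes as counted and below both with GC content and length offsets (0.23 for B2m, 0.37 for H2-K1 and 0.26 for H2-D1), and the difference between these genes was not tested.

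The immunoproteasome subunits differed in the sign of their estimates, and none of the 3 passed. Psmb8 encodes LMP7, the inducible counterpart of the chymotrypsin-like subunit. Its level was 33.7, 36.7 and 29.7 CPM in the knockout, against 14.5, 21.1 and 23.99 CPM in the wild type. Every knockout library was higher than every wild-type library, and wild-type replicate 1 was the lowest (1.68-fold, log2 0.75, SE 0.18, edgeR adjusted p = 0.0795). Psmb9 encodes LMP2, the inducible counterpart of the caspase-like subunit. It stood at 14.9, 16.4 and 13.5 CPM in the knockout, against 6.22, 8.03 and 11.6 CPM in the wild type. Again the groups did not overlap, and the wild-type libraries were the more scattered, with a coefficient of variation of 31.6% against 9.74% in the knockout (log2 0.79, SE 0.21, edgeR adjusted p = 0.101). Psmb10 encodes MECL-1, the inducible counterpart of the trypsin-like subunit. It was at 44.6, 50.6 and 39.9 CPM in the knockout, against 59.6, 58.6 and 69.1 CPM in the wild type. Every knockout library was lower than every wild-type library (log2 -0.47, SE 0.13, edgeR adjusted p = 0.110).

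**Figure D1:**
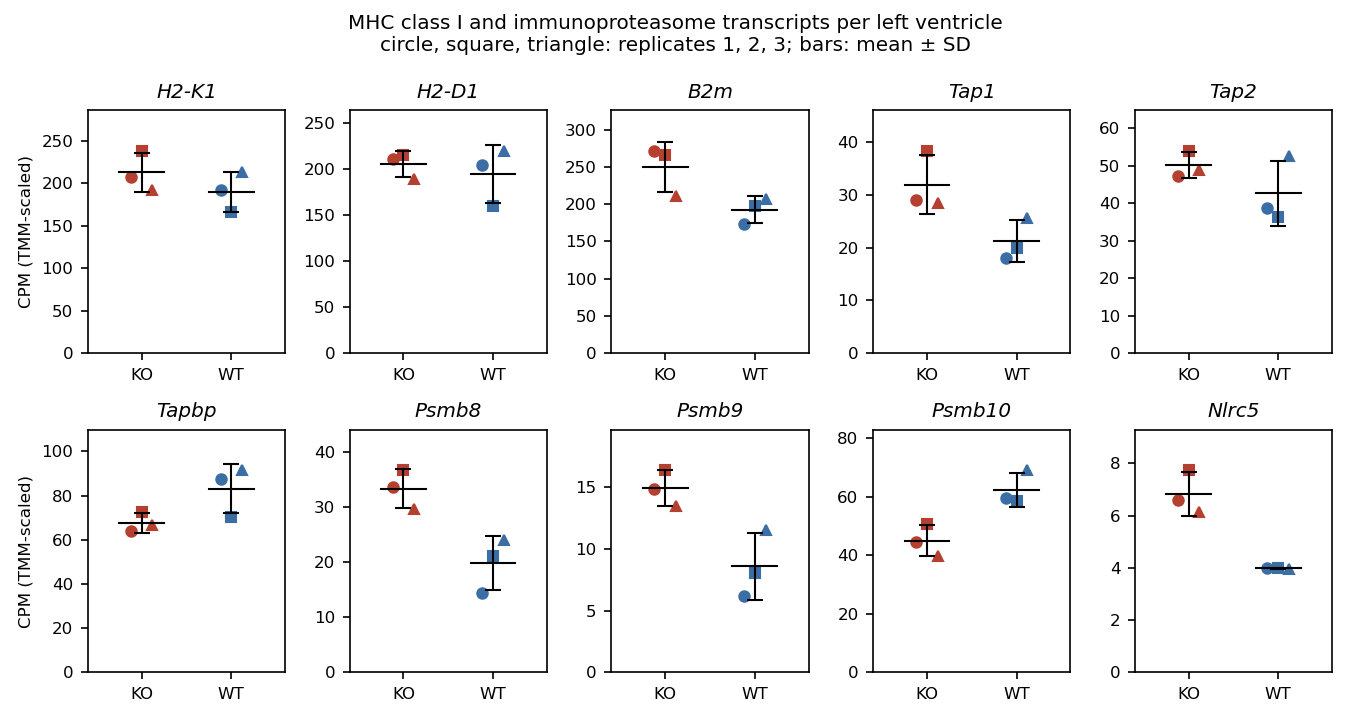
Levels of the 10 members in CPM (TMM-scaled, linear axes from 0) in knockout (KO, left) and wild-type (WT, right) left ventricles, all under angiotensin II. Points are single mice and bars are mean ± SD (n = 3 each). The knockout points lie above all wild-type points for B2m, Tap1, Psmb8, Psmb9 and Nlrc5 and below them for Psmb10.

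The transporter genes had estimates above 0 and the tapasin gene one below 0, and none of the 3 passed. Tap1 and Tap2 encode the paired chains of the TAP transporter. Tap1 was at 29.0, 38.4 and 28.4 CPM in the knockout, against 18.0, 19.97 and 25.7 CPM in the wild type. The groups did not overlap, with wild-type replicate 3 close below the knockout (1.50-fold, log2 0.59, SE 0.17, edgeR adjusted p = 0.113). Tap2 was at 47.3, 54.0 and 48.9 CPM in the knockout, against 38.8, 36.4 and 52.6 CPM in the wild type. Wild-type replicate 3 lay within the knockout range, and the difference was within the spread (0.23, SE 0.15, edgeR adjusted p = 0.423). It was 0.14 once wild-type replicate 2 was left out, and 0.41 once wild-type replicate 3 was. Tapbp, which encodes tapasin, was at 63.8, 72.5 and 66.5 CPM in the knockout, against 87.6, 70.6 and 91.6 CPM in the wild type. Wild-type replicate 2 lay among the knockout libraries, and the other wild-type libraries were higher than all of them (-0.30, SE 0.13, edgeR adjusted p = 0.246).

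Nlrc5, the class I transactivator gene, was the least abundant member. It was at 6.62, 7.74 and 6.13 CPM in the knockout, against 3.99, 3.99 and 3.96 CPM in the wild type. The groups were well apart (1.71-fold, log2 0.78, SE 0.20, edgeR adjusted p = 0.0903). The wild-type coefficient of variation was 0.411%, while counting error alone at this depth gives 9.67%, so the closeness of the wild-type libraries is tighter than their counts can resolve.

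Over the 10 members, 8 were above 0 and the median log2 fold change was 0.30, beside 49.4% of all genes above 0 and a median of -0.0045. The groups did not overlap for 5 members with the knockout above, where 11.8% of all genes did so, and for 1 with the knockout below, where 10.5% did. Together 6 of the 10 did not overlap, beside 22.3% of all genes. At an unadjusted edgeR p under 0.05, 5 members were higher and 2 lower (10.2% and 8.94% of all genes). DESeq2 called Psmb8, Psmb9, Tap1 and Nlrc5 higher and Psmb10 lower, with adjusted p between 0.0102 and 0.0457, where it called 2.63% of all genes higher and 1.99% lower. Limma-voom called no member and 0.105% of all genes. Without wild-type replicate 2, edgeR called Psmb8 and Nlrc5 higher and Psmb10 and Tapbp lower, beside 7.25% and 6.39% of all genes.

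Several estimates moved once GC content and length were taken into account together. The main transcript, taken as the best-ranked APPRIS principal isoform, is 41.2% GC for B2m and 52.6% to 57.3% GC for the other 9 members, against a median of 50.4% over all genes. When spline offsets for GC content and length were fitted per library, the log2 fold change of Tapbp was -0.10 and that of Psmb10 -0.26 (edgeR adjusted p = 0.652 and 0.265). B2m was at 0.23, H2-K1 at 0.37, H2-D1 at 0.26 and Tap2 at 0.39. Psmb8 was at 0.93, Psmb9 at 0.97 and Tap1 at 0.77 (edgeR adjusted p between 0.0625 and 0.0682), and Nlrc5 at 0.68 (edgeR adjusted p = 0.159). The median of the members was then 0.38. No member passed, 8 stayed above 0, and Tapbp and Psmb10 stayed below.

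**Figure D2:**
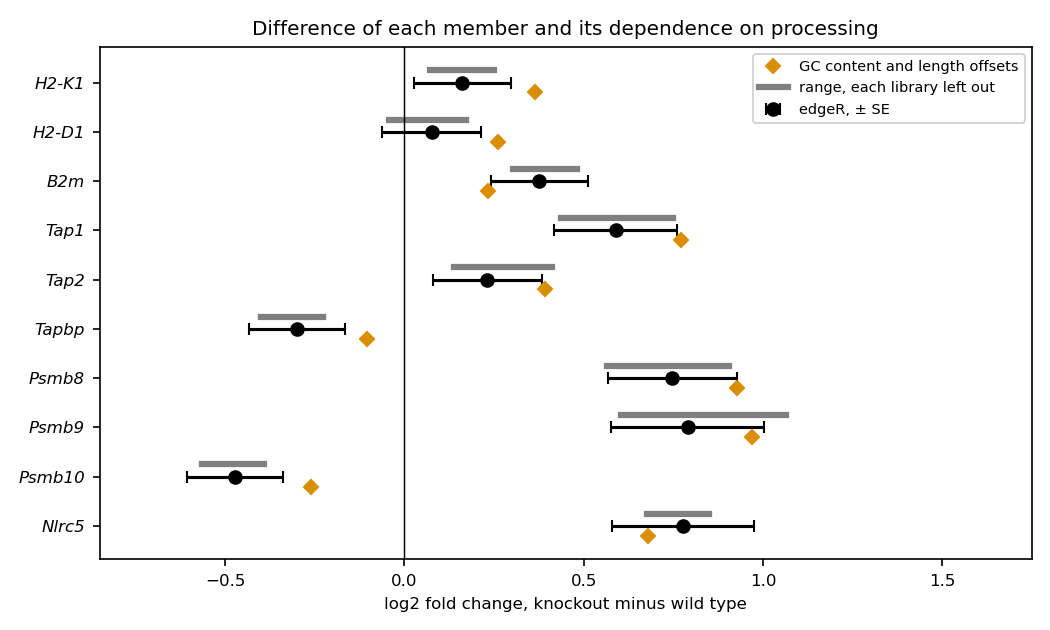
Log2 fold change of each member, knockout minus wild type (x axis). Black points are the edgeR estimates ± SE with all 6 libraries, grey bars the range when each library was left out, and diamonds the estimates with GC content and length offsets. Among Psmb8, Psmb9, Tap1 and Nlrc5 the grey bars reach lowest for Tap1, at 0.44 without knockout replicate 2, and the lowest diamond is that of Nlrc5, at 0.68, while Tapbp and Psmb10 lie closer to 0 with the offsets, at -0.10 and -0.26.

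The proteasome comparison was taken further by setting each inducible subunit against the constitutive one whose place it takes, within a library, which removes the library's size factor. Psmb5, Psmb6 and Psmb7 encode the constitutive subunits. Psmb5 was at 39.8 ± 1.83 CPM in knockout hearts and 47.5 ± 3.64 CPM in wild-type hearts and did not pass (edgeR adjusted p = 0.277). Psmb6 was at 95.7 ± 5.91 CPM in knockout hearts and 111 ± 15.8 CPM in wild-type hearts (edgeR adjusted p = 0.388). Psmb7 was at 163 ± 12.8 CPM in knockout hearts and 161 ± 12.2 CPM in wild-type hearts (edgeR adjusted p = 0.959; SD, n = 3 each throughout). The count ratio of Psmb8 to Psmb5 was 0.808, 0.965 and 0.744 in the knockout, against 0.321, 0.460 and 0.464 in the wild type. The ratio was higher in every knockout heart than in any wild-type heart. The ratio of Psmb9 to Psmb6 was 0.145, 0.175 and 0.148 in the knockout, against 0.0600, 0.0800 and 0.0896 in the wild type. For Psmb10 to Psmb7 it was 0.255, 0.338 and 0.245 in the knockout, against 0.405, 0.356 and 0.405 in the wild type.

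On the log2 scale the ratios differed by 1.03 for Psmb8 over Psmb5, 1.04 for Psmb9 over Psmb6 and -0.49 for Psmb10 over Psmb7. A ratio does not remove a trend with GC content or length, and ratios with the offsets were not computed. With the offsets the log2 fold changes were 0.93 for Psmb8 and -0.023 for Psmb5, and 0.97 for Psmb9 and -0.0019 for Psmb6. They were -0.26 for Psmb10 (56.5% GC) and 0.028 for Psmb7 (48.7% GC). The groups did not overlap for any of the 3 pairs. Each gave an exact two-sided permutation p of 0.1, the smallest that 3 against 3 libraries allow, and 0.1 after adjustment over the 3 pairs. Per kilobase of main transcript, Psmb8 made up 31.6% of Psmb8 plus Psmb5 in the knockout and 18.6% in the wild type, on average over 3 libraries each. Psmb9 made up 8.44% of Psmb9 plus Psmb6 in the knockout and 4.32% in the wild type. Psmb10 made up 19.7% of Psmb10 plus Psmb7 in the knockout and 25.6% in the wild type. These are transcript shares, and protein was not measured.

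**Figure D3:**
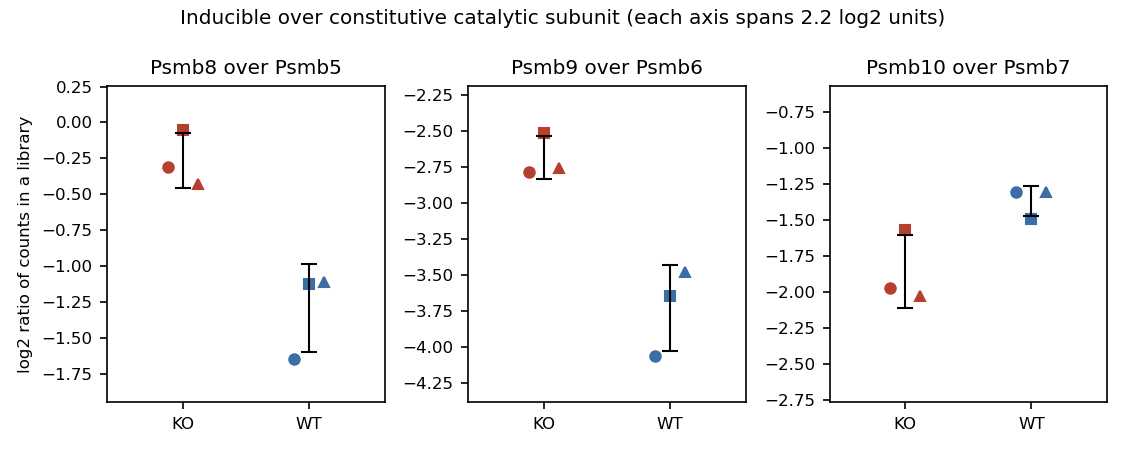
Log2 ratio of an inducible to its constitutive catalytic subunit within each library, knockout (KO, left) and wild type (WT, right). Points are single mice, bars are mean ± SD (n = 3 each), and each axis spans the same number of log2 units. The first 2 ratios are higher in every knockout library and the Psmb10 ratio is lower.

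Levels between members can be compared only per length. In CPM per kilobase of main transcript, B2m was the highest member, with a mean of 290 in the knockout and 224 in the wild type. H2-K1 followed (131 in the knockout and 117 in the wild type), then H2-D1 (97.5 in the knockout and 92.5 in the wild type), Psmb10 (34.4 in the knockout and 47.6 in the wild type) and Tapbp (23.3 in the knockout and 28.7 in the wild type). Psmb8 (20.5 in the knockout and 12.2 in the wild type) stood above Tap2 (14.5 in the knockout and 12.4 in the wild type) in the knockout, and below it by mean in the wild type. Psmb9 (11.0 in the knockout and 6.36 in the wild type) and Tap1 (10.8 in the knockout and 7.19 in the wild type) came next, and Nlrc5 was lowest (0.901 in the knockout and 0.526 in the wild type). Of neighbours in this order, the libraries of Tapbp and Psmb8 and those of Psmb9 and Tap1 overlapped in the knockout. In the wild type, those of H2-K1 and H2-D1, of Psmb8 and Tap2 and of Psmb9 and Tap1 overlapped. Of the immunoproteasome transcripts Psmb10 was thus the most abundant in both genotypes.

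Across libraries, knockout replicate 2 was the highest for H2-K1, Psmb8, Psmb9, Tap1, Tap2 and Nlrc5. Wild-type replicate 1 was the lowest for B2m, Psmb8, Psmb9 and Tap1. Among the wild-type libraries, replicate 3 was the highest for every member but Nlrc5. Each member's log2 levels, centred on their mean, were compared with the mean of the other 9 by the root mean square difference over the 6 libraries. Tap2 (0.096), H2-K1 (0.11) and B2m (0.12) were nearest, and Psmb10 (0.44), Tapbp (0.36) and Psmb9 (0.35) farthest. Of the genes outside every list, Smim3 (0.053), Rgma (0.060), Kit (0.062), Rrm1 (0.063) and Zranb3 (0.068) followed the members' mean most closely. None of these 5 passed between genotypes (edgeR adjusted p between 0.284 and 0.461).

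Several members share a locus, so their neighbours were examined. From H2-K1 to H2-D1, 62 genes were measured: 6 members, 6 class II genes and 50 others. All 6 members and all 6 class II genes were above 0, with medians of 0.41 and 0.24. Of the 50 others 8 were above 0 and 42 below, with a median of -0.19. With GC content and length offsets the medians were 0.58 for the members, 0.39 for the class II genes and 0.028 for the others. Of the 50, 15 had every knockout library below every wild-type library, as did 10.5% of all genes, and none the reverse, where 11.8% of all genes did. The 4 of smallest p were Ddah2 (-0.54, SE 0.15), Hsd17b8 (-0.47, SE 0.14), Prrt1 (-1.08, SE 0.33) and Dxo (-0.49, SE 0.18), with edgeR adjusted p between 0.101 and 0.169. With the offsets they were at -0.24, -0.14, -0.70 and -0.17, in that order (edgeR adjusted p between 0.371 and 0.652). No gene of the region passed in edgeR with all libraries and no block for replicate number, with or without the offsets. With that block and no offsets Psmb8 passed (edgeR adjusted p = 0.0384). Among the 50 others, 8 had an unadjusted p under 0.05, all lower, beside 8.94% of all genes. DESeq2 called Ddah2 and Hsd17b8 lower, beside 1.99% of all genes. It called 3 members and 1 class II gene of the region higher, beside 2.63% of all genes. Psmb9 and Tap1 overlap by 212 bases on opposite strands. B2m, Psmb8, Psmb10, Tap2, Tapbp and Nlrc5 also overlap other annotated genes, most of them on the opposite strand. As the use of strand in the counting is not given in the sources used here, reads from such a stretch cannot be told apart. Tapbp shares a span of 3422 bases with the protein-coding gene Zbtb22, also measured, on the same strand. There the use of strand would not separate the reads.

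**Figure D4:**
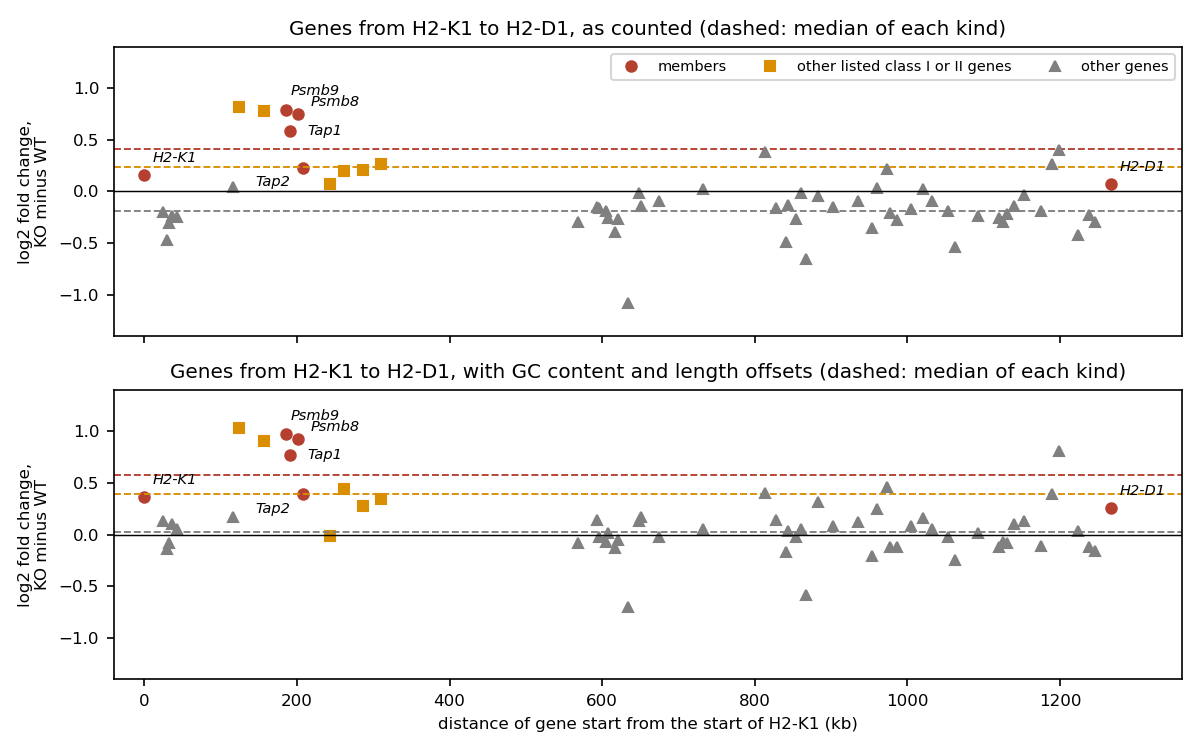
Log2 fold change, knockout minus wild type (y axis), of the 62 genes from H2-K1 to H2-D1 against distance from the start of H2-K1 in kb. The upper panel shows the counts as deposited and the lower panel GC content and length offsets; dashed lines are medians of each kind. Members and class II genes lie above the other genes of the region by median in both panels.

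The rest of the class I pathway was described from lists of named genes. Of 14 other class I and class I-like heavy chain genes measured, 9 were above 0 (median 0.19). H2-Q6, a Qa-region heavy chain gene, was at 18.6, 25.01 and 19.1 CPM in the knockout, against 14.0, 8.65 and 13.6 CPM in the wild type. Its libraries did not overlap between genotypes (0.79, SE 0.20, edgeR adjusted p = 0.0884; 0.0472 with GC content and length offsets). H2-Q7 (0.65, SE 0.23) and H2-Q8 (0.70, SE 0.27) were of like size, and the Q genes are near copies, so their separate values are uncertain. Hfe, an iron-regulating class I-like gene, was at 0.36 (SE 0.14).

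Peptide trimming and loading genes had a median of 0.092 over 9. The lectin chaperone gene Canx was at 0.33 (SE 0.12), the trimming peptidase gene Erap1 at 0.31 (SE 0.15), Hspa5 at 0.30 (SE 0.15) and the translocon gene Sec61a1 at -0.15 (SE 0.12). With GC content and length offsets they were at 0.091, 0.018, 0.15 and -0.071, in that order. Proteasome activator and assembly genes had a median of -0.11 over 10. The activator subunit gene Psme2 was at 0.58 (SE 0.25), the assembly chaperone gene Psmg1 at -0.27 (SE 0.17), the maturation factor gene Pomp at -0.19 (SE 0.13) and Psme4 at 0.22 (SE 0.16). The offsets gave 0.69, -0.18, -0.18 and -0.037 for these genes, in that order. The 11 other core subunit genes had a median of 0.012 and the 18 regulatory particle genes one of -0.025. Psma5 (0.42, SE 0.28), Psmb4 (-0.14, SE 0.13), Psmb2 (-0.10, SE 0.13) and Psma7 (-0.083, SE 0.12) were the core genes of smallest p, and Psmd3 (-0.32, SE 0.14), Psmc6 (0.32, SE 0.16), Psmd8 (-0.24, SE 0.12) and Psmd1 (0.17, SE 0.12) those of the regulatory particle. In the same order, the offsets gave 0.44, -0.042, -0.026 and 0.0095 for the core genes. For the regulatory particle genes they gave -0.059, 0.095, -0.11 and 0.084. The bulk of proteasome genes thus lay near 0, unlike Psmb8 and Psmb9 by point estimate.

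Upstream of the members, 12 of 23 genes of interferon signalling and class I transcription were above 0 (median 0.022). Irf1, which encodes an interferon-induced activator of class I and immunoproteasome genes, was at 31.6 ± 0.983 CPM in knockout hearts and 29.95 ± 3.29 CPM in wild-type hearts (SD, n = 3 each, edgeR adjusted p = 0.773). Rfx5, whose product binds class I and class II promoters, was at -0.25 (SE 0.20). Jak2 (0.32, SE 0.14), Rela (-0.32, SE 0.14) and Rfxank (-0.34, SE 0.15) had small unadjusted p and did not pass. With GC content and length offsets these genes were at 0.099, -0.053 and -0.24, in that order. All 9 class II presentation genes measured were above 0 (median 0.27), led by H2-DMa (0.82, SE 0.24), H2-DMb1 (0.78, SE 0.29) and the protease gene Ctss (0.47, SE 0.20), with H2-Eb1 at 0.27 (SE 0.18).

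With all libraries, no offsets and no block for replicate number, no gene of these pathway lists passed in edgeR or limma-voom. With GC content and length offsets H2-Q6 passed in edgeR. At an unadjusted p under 0.05, 4 of the 14 other heavy chain genes, 1 of the 9 loading genes, 1 of the 10 activator and assembly genes and 3 of the 9 class II genes were higher. Of the 23 signalling genes 3 were higher and 2 lower, and of the 18 regulatory particle genes 1 was lower. Over all genes 10.2% were higher and 8.94% lower at this threshold, so the counts of the loading, activator, signalling and regulatory particle genes were near the background or below it. Neither the constitutive catalytic nor the other core genes had one. DESeq2 called H2-Q6 and H2-DMa higher and no other gene of these lists.

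**Figure D5:**
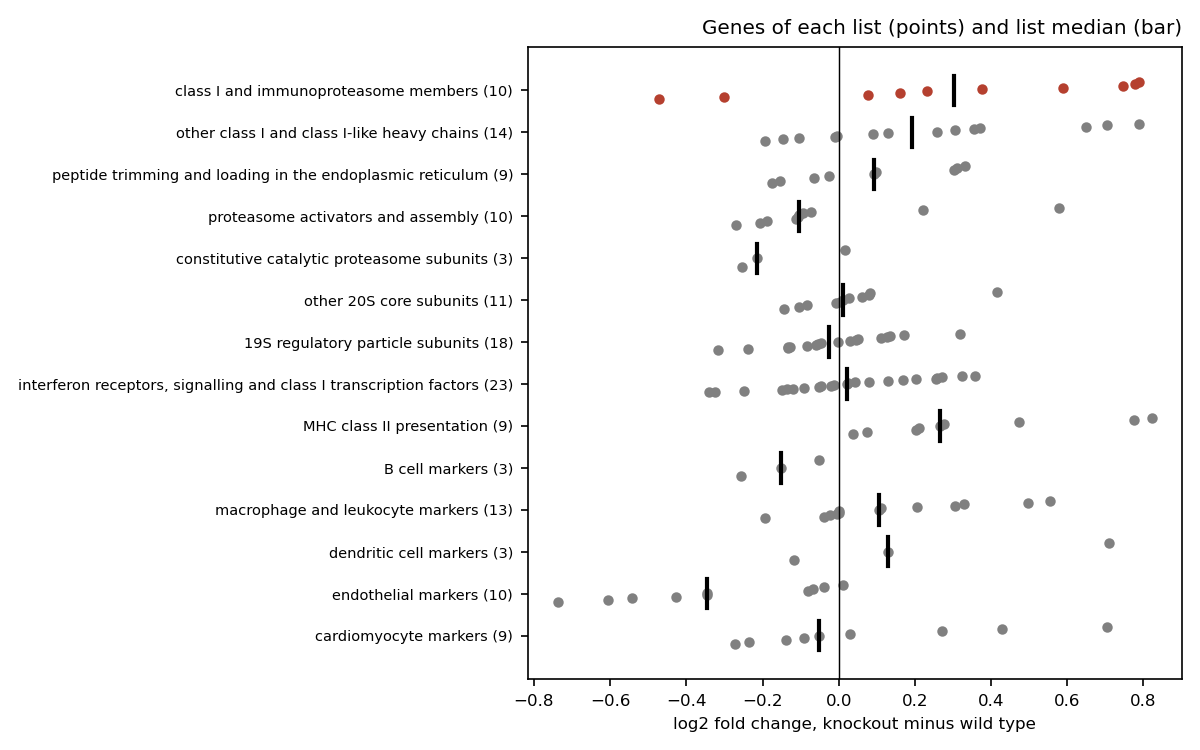
Log2 fold change, knockout minus wild type (x axis), of every measured gene of each list, with the number measured in brackets and the list's median as a bar. The members spread from -0.47 for Psmb10 to 0.79 for Psmb9, while the 19S and other 20S genes have medians of -0.025 and 0.012.

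In whole ventricle, more cells of a type and more RNA per cell cannot be told apart, so the markers of cells that carry much class I are given beside the members. Of 13 macrophage and leukocyte markers 9 were above 0 (median 0.11; 0.22 with the offsets), and their summed level ran from 458 to 462 CPM in the knockout and from 367 to 467 CPM in the wild type. Ptprc, the pan-leukocyte gene, was at 15.5 ± 2.15 CPM in knockout hearts and 10.5 ± 1.95 CPM in wild-type hearts (log2 0.55, SE 0.18, edgeR adjusted p = 0.140; log2 0.29 with the offsets). Cd68, a macrophage gene, was at 9.97 ± 2.25 CPM in knockout hearts and 8.06 ± 1.08 CPM in wild-type hearts (SD, n = 3 each). None of the 9 T cell and 7 NK cell markers listed was measured, so they are not described here. Of 5 B cell markers 3 were measured and all 3 were below 0, summing to 6.13 to 10.4 CPM in the knockout and 8.53 to 9.83 CPM in the wild type, with Cd79a at a mean of 0.773 CPM in knockout hearts and 0.919 CPM in wild-type hearts. Of 3 dendritic cell markers measured 2 were above 0, summing to 16.0 to 18.1 CPM in the knockout and 14.7 to 17.9 CPM in the wild type. Endothelial markers stood the other way, with 9 of 10 below 0 (median -0.35), summing to 1013 to 1261 CPM in the knockout and 1135 to 1624 CPM in the wild type; Pecam1 was at 213 ± 15.4 CPM in knockout hearts and 225 ± 17.3 CPM in wild-type hearts. Of 9 cardiomyocyte markers 4 were above 0 and 5 below (median -0.051), summing to 69281 to 79685 CPM in the knockout and 68648 to 85452 CPM in the wild type. No marker passed in edgeR as counted and without a block for replicate number, while DESeq2 called the endothelial gene Egfl7 lower and the cardiomyocyte gene Ryr2 higher. Their edgeR log2 fold changes were -0.60 for Egfl7 (-0.32 with the offsets) and 0.70 for Ryr2 (0.43 with the offsets), and that of the titin gene Ttn was 0.43 (-0.069 with the offsets). At an unadjusted p under 0.05, edgeR had 2 macrophage, 1 dendritic cell and 2 cardiomyocyte markers higher and 4 endothelial markers lower, beside 10.2% of all genes higher and 8.94% lower. The part of any of these cells in the members' differences was not tested.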

How the data were processed

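The authors deposited 1 table of raw counts per gene for the 6 libraries. The submitters' processing notes name mm10 and DESeq2, with no versions; the sources used here do not name the aligner, counter, annotation, strand use or any filter. Groups and replicate numbers came from the labels. The fit used edgeR 4.0.16 in R 4.3.3, its robust quasi-likelihood test with TMM factors, without covariates, on all 13384 genes (the tool's low-count filter removed 0), two-sided, with Benjamini-Hochberg adjustment over all genes and a threshold of 0.05. The common biological coefficient of variation was 0.166, and the lowest count of any gene was 12; for the members, the spread between mice exceeds counting error except for Nlrc5 in the wild type. Fold changes are knockout over wild type, and standard errors come from the test statistic. The fits were tested on simulated data. Alternatives were RLE and upper quartile factors, other filters, DESeq2 1.42.0, limma-voom 3.58.1, no robust estimation, the replicate block, GC content and length offsets (splines with 4 degrees of freedom, GENCODE M21, 97.9% of genes) and each library left out. Lengths and GC content are those of the main GENCODE transcript (APPRIS principal), chosen over the longest after the offset results were seen, because the longest of H2-K1, Psmb8, Psmb9 and Tap1 are annotated as intron-retaining; promoters are RefSeq. The members and lists were chosen with earlier results of these data known. Named were all members, the constitutive catalytic subunits, Irf1, Rfx5, up to 4 genes of smallest p in each pathway list, the 5 genes most like the members, 4 MHC neighbours and fixed cell markers where measured. Egfl7, Ryr2 and Ttn were named after their values were seen. Of the genes the rule names, 1 is not reported here.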

Additional observations from a re-analysis of the deposited data

How the results depend on the processing

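Over 17 alternatives, 7 or 8 members were above 0 and their median log2 fold change ran from 0.24 to 0.42, both extremes when single libraries were left out (without wild-type replicates 1 and 3). The call counts moved. All genes called numbered 15, against 8 with a mean of at least 5 CPM, 618 in DESeq2 and 218 with the replicate block. With GC content and length offsets the number was 41, and 50 with offsets from each gene's longest transcript (no member passed, median 0.37). The longest-transcript fit was added, and the main transcript preferred to it, after offset results were seen. The number was 48 with the replicate block and the main-transcript offsets, and 0 to 1826 with a library left out. Members called numbered 0, against 5 in DESeq2, 1 with the replicate block (Psmb8, adjusted p = 0.0384) and 0 to 4 with a library left out, the 4 being without wild-type replicate 2; the cause was not tested. H2-D1 ran from -0.042 to 0.17 with a library left out, reversed only without wild-type replicate 2. H2-K1 ran from 0.073 (without knockout replicate 2) to 0.25 (without wild-type replicate 3), and Tap2 from 0.14 (without wild-type replicate 2) to 0.41 (without wild-type replicate 3). With a library left out, members above 0 numbered 7 to 8, and the log2 ratio differences ran from 0.85 to 1.12 for Psmb8 over Psmb5, 0.88 to 1.17 for Psmb9 over Psmb6 and -0.63 to -0.40 for Psmb10 over Psmb7. No sign was seen that the replicate numbers pair the mice: deviations of same-numbered libraries correlated at -0.12, -0.074 and -0.15, and no library correlated best with its own number. Correlations this weak, with 3 libraries per group, cannot decide whether the mice were paired. With the pairing, the sign-flip test of the ratios gave a smallest possible p of 0.25. Counting error limits Nlrc5 and Psmb9 most, whose lowest counts were 97 and 151, both in wild-type replicate 1.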
